A study of Rattus norvegicus with 40 samples.

Results

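The transcripts described here were abundant in all 4 tissues sequenced from heterozygous Tti2 knockout rats and their wild-type littermates. They were chosen by their level. A transcript was kept where its mean TPM, the length-normalized abundance that kallisto reports, taken over the 10 samples of a tissue, was at least 300 in the liver, the soleus muscle, the peritoneal fat and the hippocampus alike. The rule kept 91 of the 31715 transcripts in the files, or 0.287%. TPM divides the reads of a transcript by the length from which they can come and then expresses the result as a share of the sample, so all transcripts of a sample add up to one fixed total, and a few very abundant transcripts lower the share of all others.

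The data were 40 RNA-seq libraries from 12 rats, 6 of each genotype, with 5 libraries per genotype in each tissue and at most 1 library per rat and tissue. All rats had the SHR/OlaIpcv background, an inbred spontaneously hypertensive strain. Heterozygotes, written SHR-Tti2+/-, carried in the whole body 1 copy of Tti2 with a short frameshift deletion in the first exon, made with a zinc finger nuclease and taken from a single founder line, and the controls were their wild-type littermates. Tti2 is a subunit of a co-chaperone complex that helps to assemble large kinases such as mTOR and ATM. The age of the sequenced rats is not given in the sources used here, and the peritoneal fat of the labels is named perirenal in the study's methods. The estimated counts summed to between 19176393 and 32713126 per sample, with a median of 24195968.

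As background, the messenger RNAs that stay at a high level in nearly every tissue encode the protein synthesis machinery (ribosomal proteins and elongation factors), the respiratory chain (including the transcripts made by the mitochondrial genome), the cytoskeleton, iron storage and the basic steps of sugar metabolism. Transcripts of the mitochondrial genome are usually most abundant in tissues with a high demand for oxidative energy. The files name transcripts by Ensembl identifier and pair none with a gene, and 0 of the 91 identifiers were found in the gene table used here, which lists 47357 genes of assembly GRCr8. The members are therefore given by identifier, no role is assigned to any of them, no sequence is printed, and neither the tissue labels nor the level of Tti2 could be checked by gene name.

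Abundance in all 4 tissues was the exception among abundant transcripts. Of the 921 transcripts at 300 TPM or more in at least 1 tissue, 642 reached that level in 1 tissue, 115 in 2 tissues, 73 in 3 tissues and 91 in all 4. The members made up 25.6% of the 356 transcripts at this level in the liver, 30.1% of 302 in muscle, 21.7% of 420 in fat and 24.1% of 377 in the hippocampus. They filled all 10 of the highest ranks in the hippocampus, 8 of 10 in muscle and fat and 4 of 10 in the liver. At the threshold, ENSRNOT00000001518.6 had its lowest mean in the liver at 300.014 TPM and ENSRNOT00000026341.5 at 302 TPM. Just below it lay ENSRNOT00000009046.8 with 298 TPM and ENSRNOT00000048429.1 with 297 TPM, both in the liver. The mean hid single low samples: 71 members reached 300 TPM in every one of the 40 samples, 20 did not, and 63 of the 3640 values were lower, down to 16.7 TPM.

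The members spanned levels from the threshold to 54661 TPM in a single sample. A group of 13 members had at least 2000 TPM in every tissue mean, a limit chosen after the values were seen, and these are called the most abundant members below. The highest 4 by the mean of the tissue means were ENSRNOT00000046108.3, ENSRNOT00000046201.3, ENSRNOT00000050156.3 and ENSRNOT00000078946.1, and these 4 alone held between 7.65% and 13.7% of a tissue's TPM. ENSRNOT00000046108.3 had a TPM of 18726 ± 889 in the liver, 46741 ± 5343 in muscle, 33339 ± 1761 in fat and 44181 ± 3135 in the hippocampus (SD, n = 10). Its liver samples, at most 20217 TPM, lay below every sample of the other tissues, while its muscle and hippocampus samples overlapped. ENSRNOT00000050156.3 had 20106 ± 805 TPM in the liver, 33348 ± 4212 in muscle, 20403 ± 1382 in fat and 25699 ± 2597 in the hippocampus (SD, n = 10). Each tissue overlapped with its neighbour in the order liver, fat, hippocampus and muscle.

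**Figure D1:**
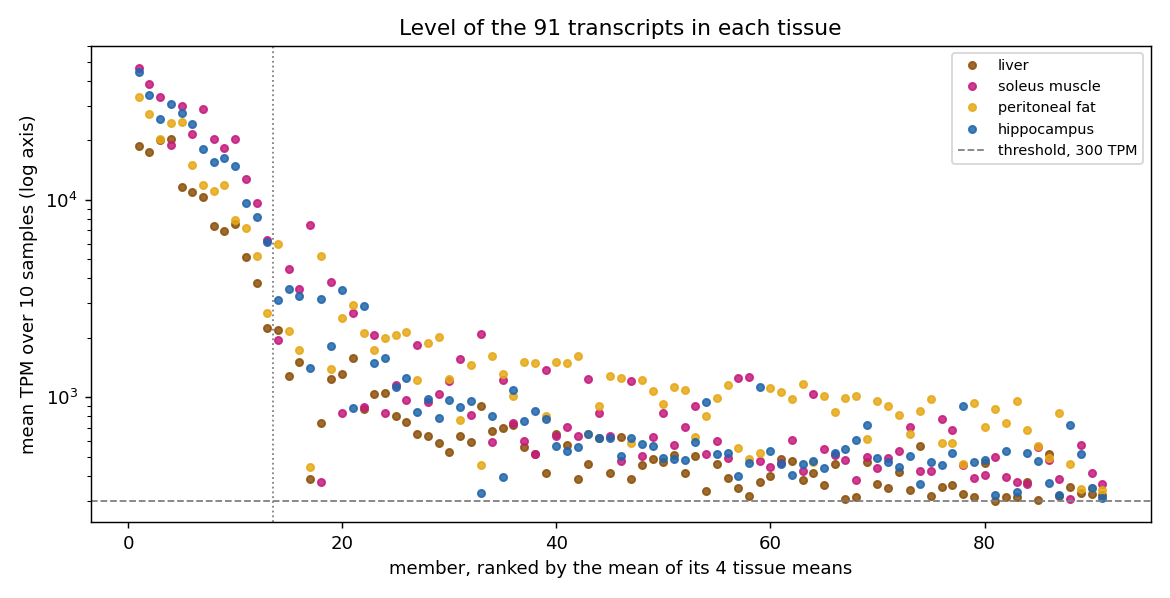
Mean TPM over 10 samples (log axis) of each of the 91 members in liver, soleus muscle, peritoneal fat and hippocampus, with members ranked by the mean of their 4 tissue means; the dashed line is the threshold of 300 TPM and the dotted line separates the 13 most abundant members from the other 78. Among the first 13 the muscle points are mostly the highest and the liver points the lowest, and further right the fat points are mostly on top.

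The share of the transcriptome taken by the 91 members differed between tissues. They held 18.6% ± 0.55 of the TPM in the liver, 29.7% ± 1.0 in fat, 34.2% ± 1.6 in the hippocampus and 38.2% ± 2.6 in muscle (SD, n = 10). In the liver the samples ranged from 18.2% to 19.7%, in fat from 28.5% to 32.2%, in the hippocampus from 32.3% to 37.9% and in muscle from 34.9% to 43.7%. The liver samples lay below all others and the fat samples below all muscle samples, while the hippocampus overlapped with muscle and, through its lowest sample at 32.26% and the highest fat sample at 32.25%, nearly touched fat. The highest hippocampus value came from wild-type rat 2, which also had the largest library of all 40, and without it the hippocampus mean was 33.8%. Since the tissue means chose the members, these shares are a description and were not tested.

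Counted as reads, the same transcripts took a much smaller share. They held 8.26% ± 0.23 of the estimated counts in the liver, 10.4% ± 0.38 in fat, 10.9% ± 0.67 in the hippocampus and 16.1% ± 1.1 in muscle (SD, n = 10). Liver was lowest and muscle highest on this scale too, but fat and hippocampus, with ranges of 9.91% to 11.4% and 10.1% to 12.5%, overlapped. The highest hippocampus value was again wild-type rat 2, without which the mean was 10.7%. In bulk tissue a difference of this kind between samples cannot be told apart from a difference in cell makeup, since fewer cells of a type and less RNA per cell give the same values.

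The 13 most abundant members made most of the difference between the tissues. They held 14.2% of the TPM in the liver, 20.3% in fat, 27.5% in the hippocampus and 30.6% in muscle, with SDs of 0.55, 1.17, 1.65 and 2.68 percentage points (n = 10). The other 78 members held 4.41% in the liver, 6.69% in the hippocampus, 7.66% in muscle and 9.35% in fat, with SDs of 0.12, 0.15, 0.24 and 0.29 points (n = 10). The order of the tissues thus differed between the groups, with muscle at the top for the first and fat for the second.

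**Figure D2:**
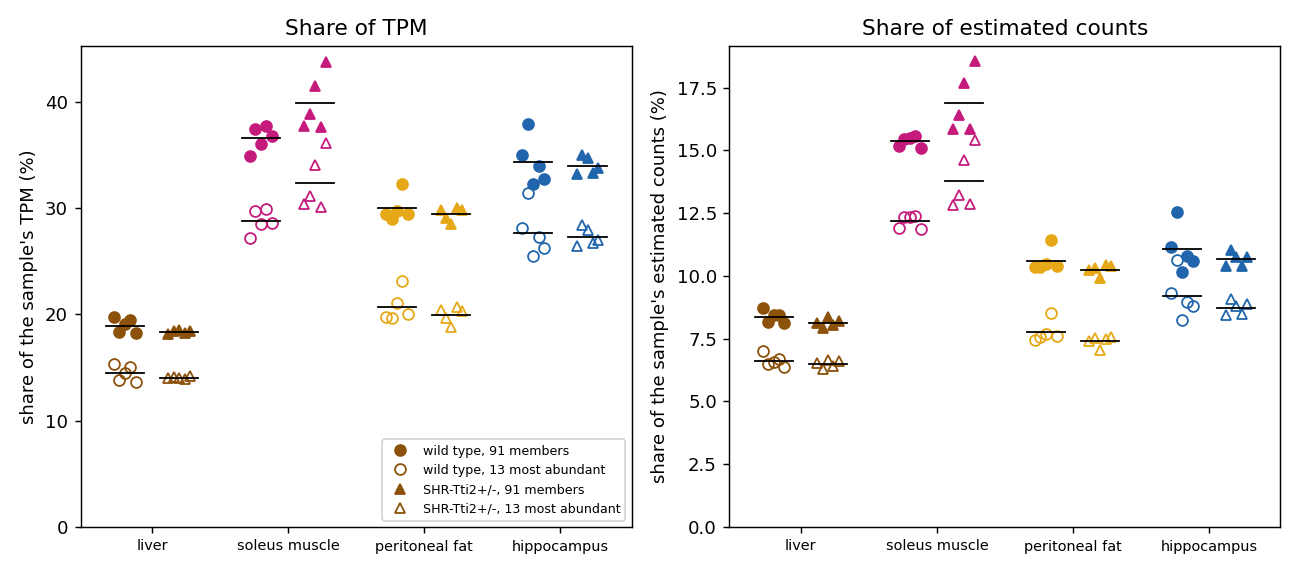
Share (%) of each sample's TPM (left) and estimated counts (right) taken by the 91 members (filled) and by the 13 most abundant of them (open), by tissue, in wild-type (circles) and SHR-Tti2+/- (triangles) rats, with 5 samples per group and black bars at group means. For the 91 members in muscle, the SHR-Tti2+/- counts lie between 15.9% and 18.6% and the wild-type counts between 15.1% and 15.6%. Their muscle TPM shares overlap, with wild type up to 37.69% and SHR-Tti2+/- from 37.60%. In the other tissues the genotypes overlap on both scales.

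By TPM the tissue order of single members followed the same split. Of the 13 most abundant members 11 had their highest mean in muscle and 2 in the hippocampus, and 12 had their lowest mean in the liver. The order muscle, hippocampus, fat and liver was shown by 20 members, among them those 11. Of the other 78 members, 48 had their highest mean in fat, 21 in muscle, 8 in the hippocampus and 1 in the liver, and 57 had their lowest mean in the liver. Over all 91 members the median TPM was 487 in the liver, 622 in the hippocampus, 706 in muscle and 1074 in fat.

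This order depended on the scale. Counts per effective kilobase were also scaled by trimmed mean of M-values (TMM) over all 40 samples, which sets the bulk of transcripts equal between libraries instead of the total. Against TPM, levels then moved by 0.34 on the log2 scale in the liver, 0.53 in muscle, -0.78 in fat and -1.04 in the hippocampus. These values do not add up to one total per sample, so each shift holds the change of unit from TPM as well as the TMM factor. On that scale 74 members had their highest mean in muscle instead of 32, 10 in fat instead of 48, 5 in the liver instead of 1 and 2 in the hippocampus instead of 10. All 13 of the most abundant members were then highest in muscle, and 12 of them were lowest in fat instead of the liver. The lowest mean of a member was in the hippocampus for 67 members and in the liver for 2, against 12 and 69 by TPM. The highest mean of the 13 was thus in muscle for 11 of them by TPM and for 13 after TMM scaling, while a lowest mean in the liver was common by TPM only.

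Within the 91, the evenness between tissues varied widely. The ratio of the highest to the lowest tissue mean in TPM had a median of 2.63 and ranged from 1.18 to 19.2. The most even member was ENSRNOT00000004206.7, a transcript of 384 bases, with 320 ± 17.0 TPM in the liver, 366 ± 43.4 in muscle, 341 ± 36.8 in fat and 309 ± 39.1 in the hippocampus (SD, n = 10). The samples of all 4 tissues overlapped for this transcript. ENSRNOT00000011316.6 followed with a ratio of 1.27 and ENSRNOT00000085692.1 with 1.40, the latter highest in the liver at 518 ± 178 TPM. At the other end, ENSRNOT00000050443.4 had 7429 ± 813 TPM in muscle against 386 ± 30.2 in the liver, 442 ± 44.3 in fat and 1405 ± 39.5 in the hippocampus (SD, n = 10). Its lowest muscle sample, at 5382 TPM, was above every sample of the other tissues. ENSRNOT00000071708.2 reached 5225 ± 371 TPM in fat and 3139 ± 340 in the hippocampus but 373 ± 72.6 in muscle, a ratio of 13.99. ENSRNOT00000017468.2 was highest in muscle at 2104 ± 261 TPM and lowest in the hippocampus at 329 ± 56.8 TPM, a ratio of 6.41.

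The members were short. Their median length was 477 bases against 1672 for all transcripts, 81.3% of them were under 1000 bases against 30.1%, and 18 of 91, or 19.8%, were under 300 bases against 2.83%. The shortest was ENSRNOT00000093150.1 with 105 bases and the longest ENSRNOT00000029656.5 with 4168 bases. Length bears on TPM through the effective length, by which the count is divided. It is the number of positions at which a fragment of the assumed size could start, changed here by the sequence bias correction. For ENSRNOT00000074325.1, of 1140 bases, it averaged 1416. Among transcripts of 300 bases or more, its median ratio to the uncorrected number was 0.806 for the most abundant members. That ratio was 1.06 for all 24464 such transcripts with counts, and a lower ratio gives more TPM per count. The effective length was under 100 bases on average for 18 members and under 20 bases for 9 of them. The 18 held 3.50% of the TPM in the liver, 5.48% in fat, 6.55% in the hippocampus and 7.40% in muscle, but 0.0965%, 0.134%, 0.142% and 0.211% of the estimated counts.

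Short members could therefore pass the threshold on few reads. ENSRNOT00000093150.1, with a mean effective length of 4.44 bases, averaged 168 estimated counts per sample, and 1 count was worth 10.7 TPM in the median sample. Its TPM of 3513 ± 430 in the hippocampus, 2523 ± 474 in fat, 1314 ± 165 in the liver and 835 ± 262 in muscle (SD, n = 10) rested on between 38.1 and 349 counts per sample. ENSRNOT00000046201.3, second of all members by TPM, has 204 bases and an effective length of 18.2 bases, and its mean of 10471 counts compared with 563845 for ENSRNOT00000050156.3, a transcript of 1545 bases with a lower mean TPM. In all, 15 members averaged under 1000 counts, with 130 as the lowest mean. Without the 18 members of short effective length, 73 transcripts remained.

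**Figure D3:**
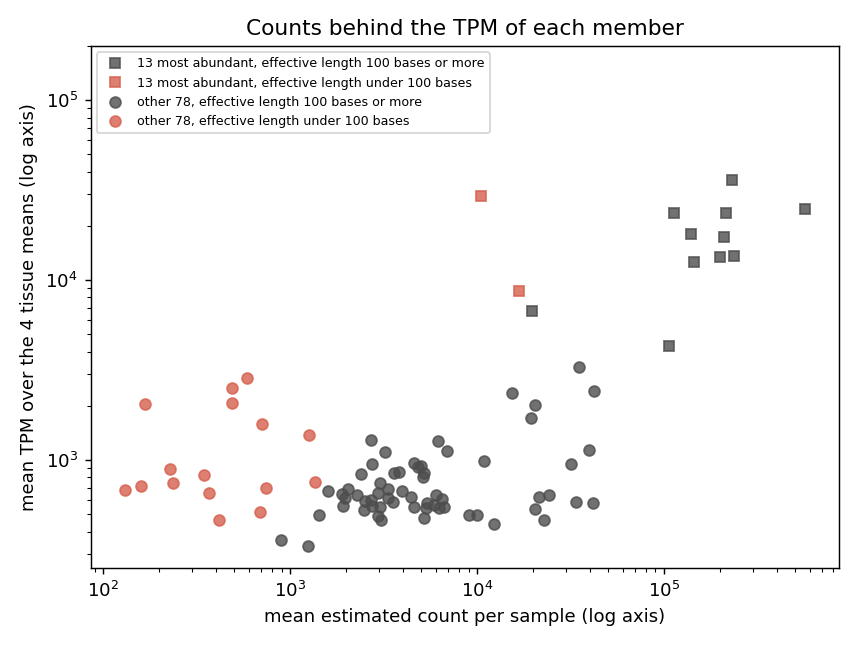
Mean estimated count per sample against mean TPM over the 4 tissue means (both log axes) for the 13 most abundant members (squares) and the other 78 (circles), in red where the mean effective length is under 100 bases. The 16 red circles lie at the left, with at most 1353 counts, and the 2 red squares are ENSRNOT00000046201.3, with 10471 counts, and ENSRNOT00000044582.3, with 16772.

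The reads of most members were shared with other transcripts in the quantification. Kallisto divides a read that fits several transcripts, so a transcript with no shared reads has whole-number counts. Counts were whole in every assessable sample for 21 of 85 members, or 24.7%, against 43.5% of the 14750 transcripts averaging at least 100 counts, and 6 members had too many counts for the printed digits to show a fraction. Values of members with fractional counts depend on how the reads were divided between similar sequences.

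Levels of most members differed little between rats. Within a tissue and genotype the coefficient of variation of TPM was summarised per member by its median over the 8 groups. That median was 5.47% for the middle member, under 10% for 79 members and over 20% for 4. In every single group 50 members stayed under 10%, and 10 exceeded 20% in at least 1 group. By group the median over members ran from 4.15% to 7.49%, against 7.60% to 14.4% for the 14756 transcripts with at least 100 counts on average, which include less abundant ones. Differences between tissues made up a median of 97.1% of a member's variance across the 40 samples, over 90% for 75 members and under 50% for 6. What follows on the members of wide spread was chosen after their values were seen.

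ENSRNOT00000046690.1, of 171 bases and with a mean of 130 counts, ranged from 16.7 to 867 TPM in the hippocampus, from 16.9 to 1721 TPM in fat, from 319 to 1638 TPM in muscle and from 311 to 631 TPM in the liver. The low ends in the hippocampus and fat were 1 library each, wild-type rat 6 with 2.46 counts and wild-type rat 2 with 3.37 counts. The other hippocampus samples had at least 313 TPM and the other fat samples at least 308 TPM. ENSRNOT00000074325.1 had whole-number counts of 4700 or more in every sample. Its TPM ranged from 232 to 2593 in muscle, with a median of 355, and the highest muscle sample, wild-type rat 2, had 83718 counts. In the hippocampus it ranged from 216 to 1197 TPM. Its muscle mean rested in part on that 1 library.

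One of the 4 highest members varied between rats together with a much longer and less abundant member. ENSRNOT00000078946.1, with 415 bases, had 20224 ± 5477 TPM in the liver, 18954 ± 5267 in muscle, 24581 ± 8509 in fat and 30506 ± 8584 in the hippocampus (SD, n = 10), and the highest rat had 2.01 to 2.85 times the TPM of the lowest in each tissue. ENSRNOT00000029656.5, with 4168 bases, had 472 ± 106, 498 ± 125, 615 ± 194 and 725 ± 179 TPM in the same tissues. The ratio of the 2 TPM values stayed between 34.4 and 47.2 in all 40 samples, with a median of 40.7, and that of their counts between 2.45 and 3.05. On log2 TPM centred within tissue and genotype, Pearson's r between the 2 over 40 samples was 0.983, the only value above 0.9 among the 4095 pairs of members. The next highest r of ENSRNOT00000078946.1 with any member was 0.342. The r is a description. Both transcripts had fractional counts, and their samples share library and depth. TPM differences between tissues also hold differences in effective length. For ENSRNOT00000078946.1 that length ran from 269 to 296 bases in muscle and from 225 to 239 in the hippocampus. Its share of the estimated counts ran from 0.291% to 0.631% in muscle and from 0.370% to 0.728% in the hippocampus.

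**Figure D4:**
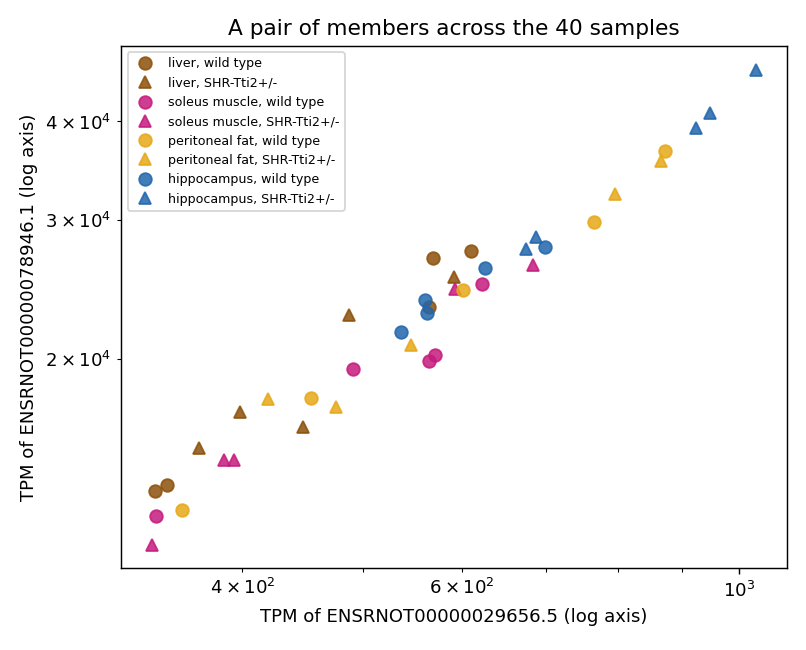
TPM of ENSRNOT00000078946.1 against TPM of ENSRNOT00000029656.5 (both log axes) in the 40 samples, coloured by tissue, with circles for wild-type and triangles for SHR-Tti2+/- rats. The points lie along one line across all tissues, with TPM ratios between 34.4 and 47.2.

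The other 12 of the most abundant members also varied together between rats, less tightly, with a median r of 0.515 over their 66 pairs and a range of 0.0294 to 0.871. The median over all pairs of members was 0.0760. The composition of the group was not constant between tissues. ENSRNOT00000050156.3 made up 14.1% ± 0.56 of the TPM of the 13 in the liver and 9.34% ± 0.65 in the hippocampus, while ENSRNOT00000049683.3 made up 8.18% ± 0.58 in the liver and 12.3% ± 0.65 in fat (SD, n = 10).

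The genotype contrast asked whether loss of 1 copy of Tti2 changed these transcripts, and it was independent of the rule, which pooled both genotypes. Each tissue was fitted by edgeR's quasi-likelihood test over all transcripts with at least 5 counts in at least 47% of samples, and a call needed a change of 1.5-fold or more together with a Benjamini-Hochberg adjusted p under 0.1. All 91 members were tested in every tissue, and 0 were called in any. The share called among all transcripts tested was 0.207% in the liver (38 of 18336), 0.00555% in muscle (1 of 18007), 0% in fat (0 of 20152) and 0.00484% in the hippocampus (1 of 20646), so 0 of 91 was near the background. The smallest adjusted p of a member was 0.508 in the liver, 0.656 in muscle, 0.681 in fat and 0.938 in the hippocampus. DESeq2 and limma called 0 members in each tissue as well. These fits called few transcripts of any kind, and in fat the smallest edgeR adjusted p over all transcripts was 0.337. With another test, sleuth's Wald test, and the same limits, the study reported more transcripts in each tissue. Its hippocampus fit also left out 1 sample that was kept here. A result of 0 members called therefore does not show that the genotype left them unchanged.

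Members also stayed close to a fold change of 1 in size. The median log2 fold change of SHR-Tti2+/- over wild type was 0.0022 in the liver, -0.0045 in muscle, -0.013 in fat and -0.012 in the hippocampus over members, and 0.0014, -0.0041, -0.0032 and 0.00036 over all transcripts tested. The middle 50% of members ran from -0.038 to 0.035 in the liver, from -0.060 to 0.094 in muscle, from -0.080 to 0.027 in fat and from -0.061 to 0.020 in the hippocampus. The widest value, -1.22 in muscle for ENSRNOT00000074325.1 (SE 0.60, adjusted p = 0.730, edgeR), became -0.042 without wild-type rat 2, whose library held the high count described above.

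The members at an unadjusted p under 0.05 were most numerous in muscle, where their share was above that of all transcripts. In the liver 0 members were higher and 0 lower, against 5.28% and 4.87% of all transcripts. In muscle 10 of 91 members, or 10.99%, were higher and 1 was lower, against 3.69% and 3.17%. In fat 1 was higher and 2 lower, against 3.83% and 3.15%, and in the hippocampus 2 were higher and 1 lower, against 2.06% and 2.16%. Of the 10 in muscle, 8 belonged to the 13 most abundant. These 8 were all among the 12 that vary together between rats, so they are not 8 separate observations. The share of 10.99% is therefore not a share of independent members. The 2 higher in the hippocampus were the co-varying pair described above and are not separate observations.

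Each alternative was read against all transcripts of its own fit. In muscle DESeq2 gave 16 members higher, or 17.6%, against 3.84% of all transcripts, and limma 6, or 6.59%, against 3.72%, with 1 lower in both. Without single libraries the number higher was between 5 and 14. It was 6 (6.59%) against 3.23% without wild-type rat 4, 6 (6.59%) against 2.74% without SHR-Tti2+/- rat 4 and 5 (5.49%) against 2.76% without SHR-Tti2+/- rat 6. The number lower in muscle was 5 (5.49%) against 2.89% without wild-type rat 4 and 6 (6.59%) against 4.99% without SHR-Tti2+/- rat 3. In fat 8 (8.79%) were lower against 3.07% without wild-type rat 1, 4 (4.4%) against 3.05% without wild-type rat 3 and 6 (6.59%) against 3.75% without SHR-Tti2+/- rat 5. In the hippocampus 5 (5.49%) were higher against 2.87% without wild-type rat 1 and 5 (5.49%) were lower against 2.62% without wild-type rat 3. In the liver no library left out gave more than 2 higher or 3 lower, each below the share of all transcripts in the same fit.

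Samples of the genotypes seldom separated. They were compared by counts scaled to the normalized library size (CPM). In muscle the 5 SHR-Tti2+/- samples lay above all 5 wild-type samples for 3 members, or 3.30%, and below for 0. The shares of all transcripts were 0.8% and 0.505%. These 3 members were among the 12 that vary together between rats and are not separate observations. In the hippocampus 1 member lay above and 1 below, or 1.10% each, against 0.591% and 0.596%. In the liver there were 0 and 0, against 1.29% and 1.25%, and in fat 0 and 0, against 0.72% and 0.595%.

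Most of the 13 most abundant members had fold changes of one sign within a tissue other than the liver, though none was called. For the 12 other than ENSRNOT00000078946.1, a split made after the values were seen, the muscle log2 fold changes were all above 0, between 0.098 and 0.23 with a median of 0.17. In the hippocampus 0 of the 12 were above 0, with a median of -0.089, and in fat 1 of the 12 was, with a median of -0.10. In the liver 7 of 12 were above 0, with a median of 0.0054. As these 12 vary together between rats, their agreement is not 12 separate observations. In muscle all 12 stayed above 0 without any single library, and their median was lowest, at 0.14, without SHR-Tti2+/- rat 4. The medians shrank to -0.055 in fat without wild-type rat 4 and to -0.039 in the hippocampus without wild-type rat 2, so single libraries carried much of those values.

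Summed, the 12 took 25.9%, 26.6%, 26.6%, 27.2% and 27.9% of the TPM in the wild-type muscle samples and 28.6%, 28.9%, 28.9%, 32.6% and 33.5% in the SHR-Tti2+/- samples. The groups did not overlap, and the highest 2 values came from SHR-Tti2+/- rats 6 and 4. In estimated counts the wild-type samples ran from 11.4% to 11.9% and the SHR-Tti2+/- samples from 12.5% to 14.8%. Library totals of these muscle samples were alike, from 23384741 to 27426073 in wild type and from 24032422 to 25867869 in SHR-Tti2+/-. The other 78 members held 7.50% to 8.20% of muscle TPM in wild type and 7.35% to 7.72% in SHR-Tti2+/-, which overlapped. No p is given for a sum over members, and RNA quality per sample, which is not given in the sources used here, was not tested.

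Among single members, ENSRNOT00000050156.3 had the smallest p in muscle. Its CPM was 27600, 28394, 30850, 31295 and 31564 in wild type and 32479, 32846, 33730, 37983 and 38942 in SHR-Tti2+/- muscle. All SHR-Tti2+/- samples lay above all wild-type samples, with a log2 fold change of 0.23 (SE 0.072, edgeR p = 0.0085, adjusted p = 0.656) and a two-sided exact permutation p of 0.0079, the smallest that 5 against 5 samples allow. The difference did not pass the adjustment in edgeR. Exact permutation p values, here and below, are unadjusted. A member named for the smallest edgeR p of a tissue was picked on these same samples. Its exact permutation p in that tissue is therefore not further evidence. In the other tissues its log2 fold change was 0.0055 in the liver, -0.12 in fat and -0.16 in the hippocampus, with overlapping samples.

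ENSRNOT00000078946.1 had the smallest p in the hippocampus. Its CPM was 3740, 3814, 3890, 4488 and 4523 in wild type and 4591, 4645, 6379, 6605 and 7268 in SHR-Tti2+/- hippocampus. The groups touched closely, with 2 SHR-Tti2+/- samples next to the wild-type range and 3 well above it. The log2 fold change was 0.53 (SE 0.135, edgeR p = 0.0028, adjusted p = 0.938), with an exact permutation p of 0.0079. Its partner ENSRNOT00000029656.5 had a log2 fold change of 0.50 there (SE 0.134, edgeR p = 0.0037, adjusted p = 0.938, exact permutation p = 0.032), and as the pair varies together this is not a separate observation. For ENSRNOT00000078946.1 the value was between 0.44 and 0.61 without single libraries and did not pass the adjustment in edgeR. DESeq2 gave an adjusted p of 0.0983, below 0.1 but under the 1.5-fold limit. In the liver, muscle and fat its log2 fold changes were -0.051, -0.059 and 0.0090, each smaller than its SE of 0.22, 0.22 and 0.29.

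ENSRNOT00000013159.5 had the smallest p in fat and was lower in SHR-Tti2+/- there. Its CPM was 731, 758, 792, 888 and 942 in wild type and 593, 650, 660, 732 and 736 in SHR-Tti2+/- fat, so the 2 groups overlapped narrowly. The log2 fold change was -0.29 (SE 0.085, edgeR p = 0.0064, adjusted p = 0.681), with an exact permutation p of 0.024. It was -0.34 in the liver (exact permutation p = 0.071), -0.16 in the hippocampus (exact permutation p = 0.0079), where the samples did not overlap, and -0.034 in muscle (exact permutation p = 0.55). The edgeR adjusted p was 0.511 in the liver, 0.938 in the hippocampus and 0.927 in muscle. No tissue passed the adjustment in edgeR for this member.

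**Figure D5:**
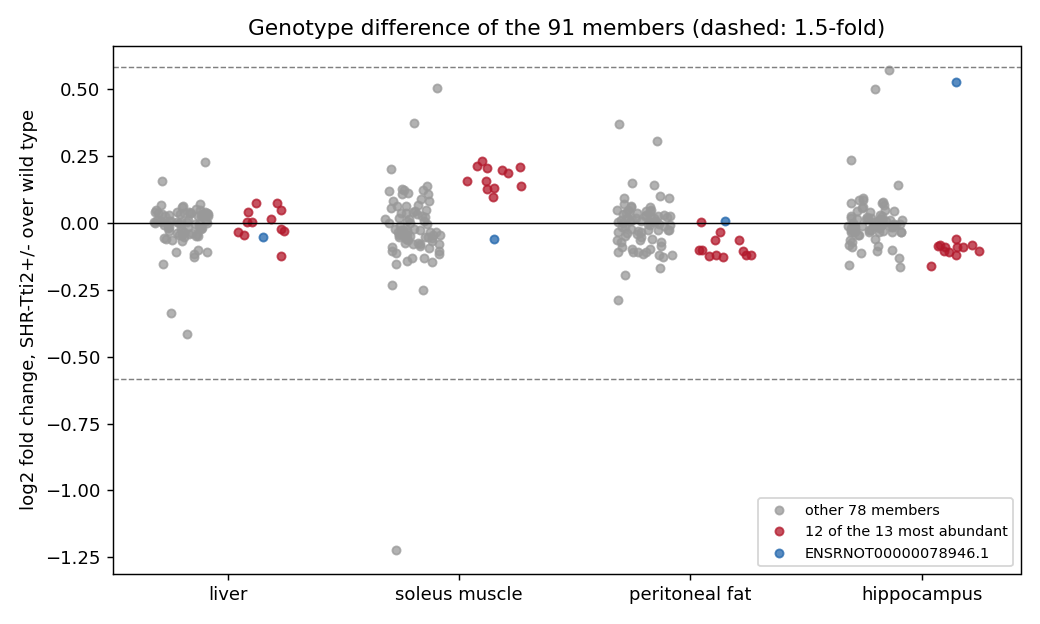
Log2 fold change of SHR-Tti2+/- over wild type (edgeR) for each member in each tissue, in grey for the other 78 members, red for 12 of the 13 most abundant and blue for ENSRNOT00000078946.1, with dashed lines at 1.5-fold. The 12 lie above 0 in muscle, below 0 in the hippocampus and around 0 in the liver, and the single low grey point in muscle, at -1.22, is ENSRNOT00000074325.1.

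Whether the genotype effect differed between muscle and another tissue was tested with an interaction term over the 20 samples of each tissue pair, added after the data were seen. The 20 samples came from 12 rats, 8 of which gave both tissues, and this fit had no term for the rat. At an adjusted p under 0.1, edgeR found 0 members for muscle against the liver, fat or hippocampus, with smallest adjusted p of 0.321, 0.737 and 0.625. At an unadjusted p under 0.05, 4 members differed between muscle and liver, against 8.8% of all transcripts. Between muscle and fat 13 members, or 14.3%, did so against 6.47%, and between muscle and hippocampus 21 members, or 23.1%, against 6.84%. These 21 held 10 of the 13 most abundant members, which for the most part vary together between rats and are not separate observations. With a term for each rat the members were 7 (7.69%) against 10.6% for the liver, 5 (5.49%) against 4.44% for fat and 10 (10.99%) against 5.3% for the hippocampus, 2 of the 10 among the most abundant. The fit with rat terms rests on the 8 rats that gave both tissues and left 6 residual degrees of freedom. A lower count there does not show that a difference is absent. No member had an adjusted p under 0.1 in that fit either, with smallest values of 0.344, 0.997 and 0.877. The 3 contrasts share the muscle samples. A difference of the genotype effect between tissues was not shown for any single member.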

How the data were processed

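Poly(A)-selected RNA was sequenced as single-end reads from strand-specific libraries. The authors quantified transcripts with kallisto against Ensembl cDNA, with sequence bias correction and an assumed mean fragment length; the submitters' processing notes name kallisto 0.46.0. Each deposited file gives length, effective length, estimated counts and TPM per transcript, and the deposited TPM values were used unchanged. The deposited estimated counts were rounded for the count tests. Members and lists were chosen with earlier results of these data known. Planned gene lists and cell type markers could not be used because identifiers are not paired with genes.

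Each tissue was fitted separately with genotype as the only term, as in the study, with edgeR 4.0.16 (TMM, quasi-likelihood F-test, Benjamini-Hochberg over all transcripts tested) in R 4.3.3. DESeq2 1.42.0 and limma 3.58.1 (natural log of normalized counts + 0.5) were alternatives. The study left out 1 hippocampus sample that it does not name in the sources used here, and all 10 were kept here; wild-type rat 2 had the largest library and the highest member share of the 10. Replicates are different rats. Scripts were tested on simulated counts.

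Named members were, by a fixed rule, the 4 highest, the 3 most and 3 least even, the smallest genotype p per tissue (at most 2 higher and 2 lower), the shortest, the longest and those at the threshold. Alternatives changed the threshold, scaling, length, filter, size factors, test, replicate block and samples. The number of libraries limits precision, and counts carry counting error besides the spread between rats.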

Additional observations from a re-analysis of the deposited data

Results flagged for a closer look

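In groups of 5 samples, a value was singled out where its gap to the nearest other sample was over 0.71 of the group's range. Of 160 groups looked at, 9 were singled out, and chance alone gives about 1 in 20, or 8.0 here. Wild-type rat 4 had the highest share of the members in fat, with 32.2% of the TPM against 29.0% to 29.7% in the other 4 rats and 11.4% of the estimated counts against 10.4% to 10.5%. SHR-Tti2+/- rat 3 had the highest share of the 78 less abundant members in fat, at 9.71% of the TPM against 9.37% to 9.44%. Wild-type rat 2 of the hippocampus had 411 TPM of ENSRNOT00000004206.7 against 277 to 314 and 2232 TPM of ENSRNOT00000071708.2 against 3178 to 3324. In the liver, rat 4 of each genotype was high for ENSRNOT00000050443.4, with 453 TPM against 386 to 400.3 in wild type and 403 TPM against 352 to 366 in SHR-Tti2+/-; the number names different animals in the 2 genotypes. ENSRNOT00000017468.2 was high in fat of wild-type rat 3, at 565 TPM against 437 to 459, and ENSRNOT00000001518.6 was low in the hippocampus of SHR-Tti2+/- rat 3, at 299 TPM against 321 to 326.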

How the results depend on the processing

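The number of members was 163 at 200 TPM, 38 at 500 TPM and between 90 and 91 without single samples. With the threshold's number kept, TMM scaling over all samples gave 45 members, of which 43 were among the 91. Those values are not in TPM. Their log2 shift against TPM was 0.34 in the liver, 0.53 in muscle, -0.78 in fat and -1.04 in the hippocampus. The same number was thus a stricter limit in fat and hippocampus and a looser one in liver and muscle. The counts of 45 and 91 therefore do not refer to a common level. Leaving the 10 highest other transcripts out of the total raised the share of TPM to 24.6% in the liver, 46.7% in muscle and 32.4% in fat and that of counts to 10.04%, 19.8% and 11.1%. With full length in place of effective length the share of TPM was 14.4% in the liver, 27.8% in muscle, 21.3% in fat and 23.7% in the hippocampus. Under TMM scaling the median ratio of highest to lowest tissue mean was 3.52, and 5 members were highest in the liver, 74 in muscle, 10 in fat and 2 in the hippocampus. The number of members called between genotypes was 0 under every alternative run, leaving out single samples included, and the median log2 fold change over members stayed within 1 SD between rats of 0.060, 0.035, 0.037 and 0.055 in the liver, muscle, fat and hippocampus. With the rat number as a replicate block 0 members were called, and unadjusted p under 0.05 gave 0 members higher and 4 lower in the liver (5.43% and 5.14% of all transcripts in that fit), 7 and 1 in muscle (2.94% and 2.39%), 1 and 1 in fat (2.95% and 2.49%) and 2 and 0 in the hippocampus (1.08% and 0.935%). The numbers name different animals in the 2 genotypes, since each rat has 1 genotype. Deviations of same-numbered rats correlated between -0.123 and 0.082, and a link between them, such as litter or processing, was not tested. The block called 11 transcripts in the liver against 38 without it, and 0 in the other tissues. Over all transcripts DESeq2 called 120 in the liver, 40 in muscle, 20 in fat and 11 in the hippocampus, limma 16, 1, 0 and 2, and a filter of at least 10 counts in every sample 64, 5, 0 and 1. The cause of these differences was not tested. Shares of 5 rats per group limit what can be seen to differences larger than their spread.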
